A study of Mus musculus with 6 samples.

Results

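Serum amyloid and acute phase genes were followed in the corneas of mice with experimental dry eye that had received vehicle or luteolin. The set holds 10 genes of the 17794 in the table, taken by symbol: the serum amyloid A genes Saa1, Saa2 and Saa3, the haptoglobin gene Hp, the lipocalin-2 gene Lcn2, the orosomucoid genes Orm1 and Orm2, the long pentraxin gene Ptx3, the ceruloplasmin gene Cp, and Lrg1, which encodes leucine-rich alpha-2-glycoprotein 1. All 10 had a row in the table. In both groups the ocular surface had first been damaged with benzalkonium chloride (BAC), a detergent used as a preservative in eye drops. One group of 3 libraries then received vehicle and the other group of 3 received luteolin, a plant flavone, each for 10 days, and RNA of the whole cornea was sequenced. The labels give no genotype, strain, age, dose or route, and they describe the cell type as multiple. Undamaged corneas were not analysed here, so each value compares luteolin with vehicle in damaged tissue.

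Acute phase proteins are plasma and tissue proteins whose synthesis rises in inflammation. The liver makes most of them under interleukin-6, interleukin-1 and related cytokines, which act through STAT3, NF-kappaB and the C/EBP factors. Saa3, Lcn2 and Ptx3 are also made outside the liver, by epithelium, fibroblasts and macrophages, and lipocalin-2 and haptoglobin are stored in granules of neutrophils. Serum amyloid A binds lipoproteins and attracts leukocytes, lipocalin-2 holds back iron from bacteria by binding their siderophores, haptoglobin binds free haemoglobin, and ceruloplasmin is a copper-carrying ferroxidase.

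The sequences upstream of 4 of the genes are shown because these genes share a chromosomal cluster (Saa1, Saa2 and Saa3) or had the highest vehicle levels (Saa3 and Lcn2). They are the 250 bases before each gene's start in RefSeq, build GRCm38.p6, written 5′ to 3′ on the gene's strand. The authors' build was mm9, and no position of theirs is used. Capitals mark matches to TTNNGNAA, a core of sites bound by C/EBP factors, on either strand.
Saa3, chr7:46715677-46715926, minus strand: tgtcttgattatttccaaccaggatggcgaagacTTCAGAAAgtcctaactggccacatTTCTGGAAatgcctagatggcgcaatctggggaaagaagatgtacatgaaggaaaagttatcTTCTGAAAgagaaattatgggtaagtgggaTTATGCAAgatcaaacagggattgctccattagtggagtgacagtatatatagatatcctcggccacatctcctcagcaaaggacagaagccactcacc
Saa1, chr7:46742981-46743230, minus strand: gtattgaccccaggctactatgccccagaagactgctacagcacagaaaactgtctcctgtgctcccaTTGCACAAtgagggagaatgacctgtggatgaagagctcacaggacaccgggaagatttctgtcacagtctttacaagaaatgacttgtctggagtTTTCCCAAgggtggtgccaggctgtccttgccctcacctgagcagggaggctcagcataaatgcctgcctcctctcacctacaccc
Saa2, chr7:46751583-46751832, plus strand: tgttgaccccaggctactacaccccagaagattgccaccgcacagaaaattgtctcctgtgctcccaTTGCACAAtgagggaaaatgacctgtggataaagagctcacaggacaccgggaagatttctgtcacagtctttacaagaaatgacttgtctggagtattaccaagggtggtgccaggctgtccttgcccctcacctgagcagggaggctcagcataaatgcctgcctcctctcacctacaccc
Lcn2, chr2:32387740-32387989, minus strand: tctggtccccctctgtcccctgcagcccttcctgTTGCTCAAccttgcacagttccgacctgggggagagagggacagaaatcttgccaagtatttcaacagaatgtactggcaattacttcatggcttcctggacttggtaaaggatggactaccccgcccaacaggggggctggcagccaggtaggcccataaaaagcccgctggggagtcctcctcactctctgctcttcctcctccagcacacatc
Windows of 300 bases, 250 before to 50 after the start, were searched on both strands for 8 of the 10 genes (9 windows, Cp having 2), and Hp and Orm1 had no entry. The C/EBP letters TTNNGNAA were found for 7 of the 8 genes, where 40.7% of all 32851 promoter windows of the same length held them. The Saa3 window held 4 such matches, those of Saa1 and Orm2 held 2, those of Saa2, Lcn2 and Ptx3 and both of Cp held 1, and that of Lrg1 held none of these letters. The STAT letters TTCNNNGAA were in 0 of the 9 windows and in 8.30% of all windows. The NF-kappaB consensus was found for 1 gene, Ptx3, as 2 overlapping matches at the start site, and in 4.51% of all windows. No match to one motif overlapped a match to another. A match is a description of letters and not a binding site.

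Library totals ran from 16084855 to 16469699 estimated counts. No library was a copy of another, since counts of same-group libraries varied beyond sampling noise, at a chi-square of 6.30 to 30.3 per degree of freedom. Whether each library came from its own animal is not stated in the labels, so the p-values cover the spread among these 6 libraries alone, and that spread may be technical. For the tissue label, 12 markers of corneal epithelium were looked up, and all were present. Krt12, the keratin of corneal epithelium, stood at 12115 to 15971 TPM (a level corrected for gene length and library size) with vehicle and 25432 to 26388 TPM with luteolin. Summed TPM of these markers was 50274 to 55521 with vehicle and 73701 to 74442 with luteolin. Of these markers 7 rose, 1 fell and 4 did not pass, where 28.5% of all tested genes were called higher and 30.4% lower. The 1 that fell was Krt14, a keratin of basal epithelial cells, from 5209 ± 1753 to 418 ± 81.2 CPM (SD, n = 3; 12.5-fold, edgeR adjusted p = 0.000114). In the same list, the keratin gene Krt5 rose 1.40-fold (edgeR adjusted p = 0.00103) and Trp63 rose 1.19-fold (edgeR adjusted p = 0.0349). The keratin gene Krt15 did not pass (log2 fold change -0.07). In whole tissue, fewer cells of a type and less RNA per cell cannot be told apart.

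Together the 10 genes held 628, 2096 and 721 TPM in vehicle 1, 2 and 3, and 7.62, 9.39 and 12.04 TPM in luteolin 1, 2 and 3. Luteolin libraries therefore held far fewer transcripts of the set than any vehicle library, and Saa3 made up most of the vehicle sum (83.9% to 90.6%). For 8 of the 10 genes each luteolin library lay below each vehicle library, where 29.3% of all genes in the table did so. The other 2, Orm1 and Orm2, had next to no reads in any library. Counts were enough to test 5 genes, Saa3, Hp, Lcn2, Lrg1 and Cp. All 5 tested genes fell (edgeR's quasi-likelihood test, adjusted p from 0.000138 to 0.0274). Of the 13838 tested genes, 30.4% were called lower and 28.5% higher, 58.9% in either direction, and 33.7% had luteolin libraries that all lay below the vehicle libraries. Saa3, Hp, Lcn2 and Lrg1 passed the count filter through the vehicle group alone. Such a pass favours genes that are lower with luteolin, so the count of 5 is given as a description.

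**Figure D1:**
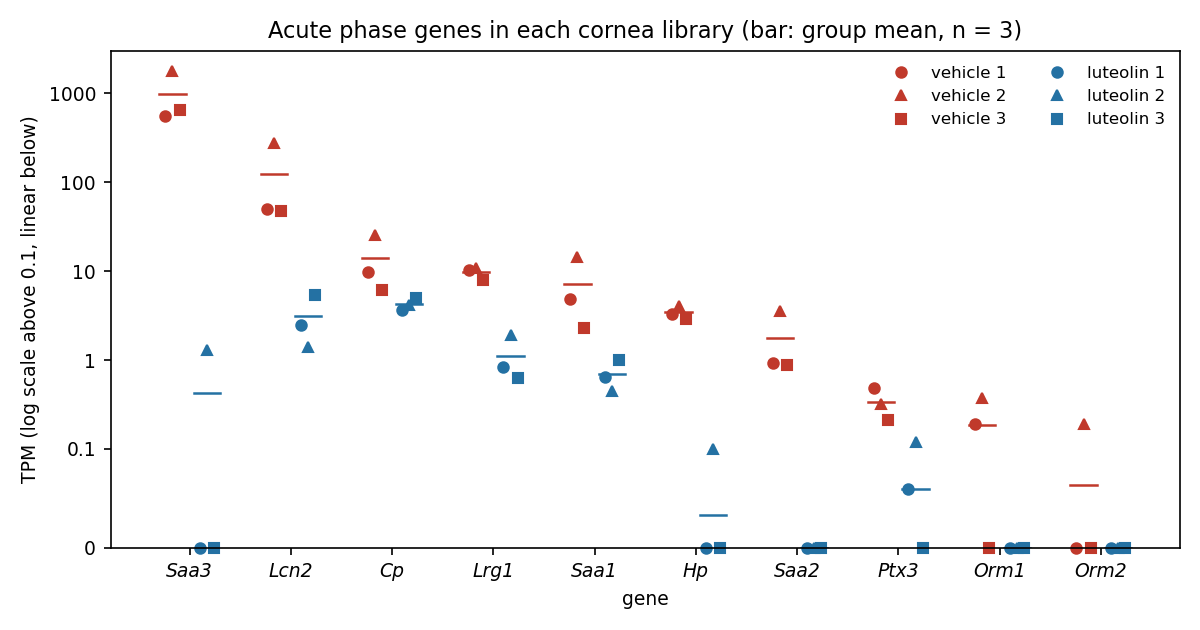
TPM (vertical axis, logarithmic above 0.1 and linear below) of the 10 genes in each of the 3 vehicle (red) and 3 luteolin (blue) libraries, with horizontal bars at the group means. Saa3 ranges from 548 to 1759 TPM with vehicle and is at 0 in 2 luteolin libraries, while the luteolin points of Cp lie just below its vehicle points.

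Among the serum amyloids, Saa3 (gene ID 20210) is the form made chiefly outside the liver. It stood at 548, 1759 and 653 TPM in vehicle 1, 2 and 3 and at 0, 1.29 and 0 TPM in luteolin 1, 2 and 3. These are counts of 1324, 4324 and 1643 against 0, 3 and 0, so all reads of the luteolin group lay in 1 library. Ranked by TPM, Saa3 was gene 235, 100 and 205 of the table in the 3 vehicle libraries and gene 11864 in luteolin 2. With 3 luteolin counts the pooled ratio of vehicle to luteolin was 2213, with a 95% exact counting interval of 757 to 10735, which covers counting error only. The ratio was 1355 (463 to 6572) without vehicle 2. Without luteolin 2 there were 0 luteolin counts, and with 3 counts over the group as the floor Saa3 was at least 1480-fold lower. The fitted log2 fold change (luteolin against vehicle, SE 0.941) was -10.95, with a 95% interval of -13.15 to -8.74 and an edgeR adjusted p of 0.000138. Of the 13838 tested genes, 0 had a lower fitted value, and a fit with so few luteolin counts depends on the prior count.

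Saa1 and Saa2, the forms known from plasma, were minor in this tissue. Saa1 (gene ID 20208) had 16, 50 and 8 counts with vehicle and 2, 2 and 4 with luteolin, which is 4.81, 14.6 and 2.32 against 0.640, 0.450 and 1.01 TPM. The groups did not overlap, and the pooled ratio was 8.42 with an exact counting interval of 4.06 to 20.2. Without vehicle 2, the library with the most reads, that ratio was 4.11 (1.79 to 10.6). Saa2 (gene ID 20209) had 3, 12 and 3 counts with vehicle and 0 in each luteolin library, and was at least 5.46-fold lower against 3 counts over the luteolin group. That bound was 2.74-fold without vehicle 2 and 3.64-fold to 3.65-fold without any 1 luteolin library. Within the serum amyloids, Saa3 held 99.0% to 99.5% of the summed TPM of the 3 genes in the vehicle libraries. With luteolin, Saa1 held 100% of it in 2 libraries and Saa3 74.1% in the remaining one.

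The reference transcripts of Saa1 and Saa2 were 94.4% identical over 606 aligned bases, with a longest shared run of 99 bases (GENCODE M21). Their symbols are also listed as synonyms of each other, so the gene IDs identify them. Saa3 was 76.3% identical to Saa1 over 520 aligned bases, with a longest shared run of 58 bases. Gaps were left out of these percentages, 124 gap bases for Saa3 and Saa1 against 3 for Saa1 and Saa2. All 10 genes had whole-number counts in all 6 libraries (within 0.001), but how the authors' counting divided reads between Saa1 and Saa2 is not given in the sources used here, and their separate values are uncertain.

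Lcn2 (gene ID 16819), the gene of the siderophore-binding lipocalin-2, had the next highest level. It stood at 50.2, 277 and 47.5 TPM in vehicle 1, 2 and 3 and at 2.48, 1.40 and 5.45 TPM in luteolin 1, 2 and 3, with counts of 14, 8 and 32 in the latter. The lowest vehicle library was 8.62 times the highest luteolin library in CPM (counts scaled to library size). In CPM the means were 45.5 ± 47.8 with vehicle and 1.16 ± 0.801 with luteolin (SD, n = 3). The vehicle SD was larger than the vehicle mean because vehicle 2 stood apart. The log2 fold change was -5.28 (SE 0.954, 95% interval -7.52 to -3.05, edgeR adjusted p = 0.00274), which is 38.9-fold lower. It was -3.93, or 15.3-fold, without vehicle 2 and -5.98, or 63.0-fold, without luteolin 3, and the call held in both cases.

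Hp (gene ID 15439), whose product haptoglobin binds haemoglobin, was low in all libraries. It stood at 3.30, 4.10 and 2.91 TPM with vehicle, from counts of 39, 49 and 35. Luteolin 1 and 3 had 0 counts and luteolin 2 had 1, at 0.10 TPM. The vehicle libraries lay close together, and the groups did not overlap. The pooled ratio was 112 with an exact counting interval of 19.7 to 4460, and the edgeR adjusted p was 0.000189. With luteolin 2 left out no luteolin count remained, so Hp was at least 24.97-fold lower.

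Orm1 (gene ID 18405) and Orm2 (gene ID 18406), which encode alpha-1-acid glycoproteins of plasma, were at the limit of detection. Orm1 had 1, 2 and 0 counts with vehicle and Orm2 had 0, 1 and 0, and both had 0 in each luteolin library. No fold is given, because both groups are at or under 3 counts. A group total of 0 allows up to 0.0646 CPM in the luteolin group. The Orm1 and Orm2 reference transcripts were 91.0% identical, and that of Orm3, which also had 3 vehicle counts and 0 luteolin counts, was 88.5% identical to Orm2. A difference in these genes was not detectable at this depth.

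Ptx3 (gene ID 19288), the long pentraxin that binds microbes and complement C1q, had 9, 6 and 4 counts with vehicle and 1, 2 and 0 with luteolin. At 0.210 to 0.490 TPM with vehicle and 0 to 0.120 TPM with luteolin, the groups did not overlap. The pooled ratio was 5.77 with an exact counting interval of 1.70 to 30.4. That interval ran down to 1.13 without luteolin 3 (ratio 3.84), and the ratio was 11.6 (1.84 to 481) without luteolin 2. When the count filter was left out, Saa1 (edgeR adjusted p = 0.0149), Saa2 (0.0258) and Ptx3 (0.0417) passed the test as lower and Orm1 (0.204) and Orm2 (0.423) did not, so that 8 of the 10 genes were called lower, where 24.7% of the 17759 genes in that fit were.

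Lrg1 (gene ID 76905), which encodes a secreted glycoprotein that acts on TGF-beta signalling in endothelium, was even across the vehicle libraries. It stood at 10.2, 10.8 and 7.91 TPM with vehicle and at 0.830, 1.91 and 0.630 TPM with luteolin. In CPM this was 6.82 ± 0.981 against 0.798 ± 0.495 (SD, n = 3). The log2 fold change was -3.08 (SE 0.379, 95% interval -3.97 to -2.20, edgeR adjusted p = 0.000511), which is 8.48-fold lower, and 13.2-fold without luteolin 2.

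Cp (gene ID 12870), the gene of the ferroxidase ceruloplasmin, differed least among the tested genes. It stood at 9.87, 25.7 and 6.08 TPM in vehicle 1, 2 and 3 and at 3.61, 4.12 and 4.95 TPM in luteolin 1, 2 and 3. The groups came close, since the lowest vehicle library was 1.13 times the highest luteolin library in CPM. In CPM the means were 35.7 ± 25.7 with vehicle and 12.5 ± 1.86 with luteolin (SD, n = 3). The log2 fold change was -1.52 (SE 0.476, 95% interval -2.64 to -0.40, edgeR adjusted p = 0.0274). Without vehicle 2 it was -0.76, a 1.70-fold decrease against 2.87-fold with all libraries, and still passed. Its call ended without any 1 luteolin library (log2 fold change -1.43 to -1.63, edgeR adjusted p = 0.0582 to 0.0849) and with a robust fit (adjusted p = 0.0580), the adjusted p running from 0.00470 to 0.0849 over the alternatives.

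**Figure D2:**
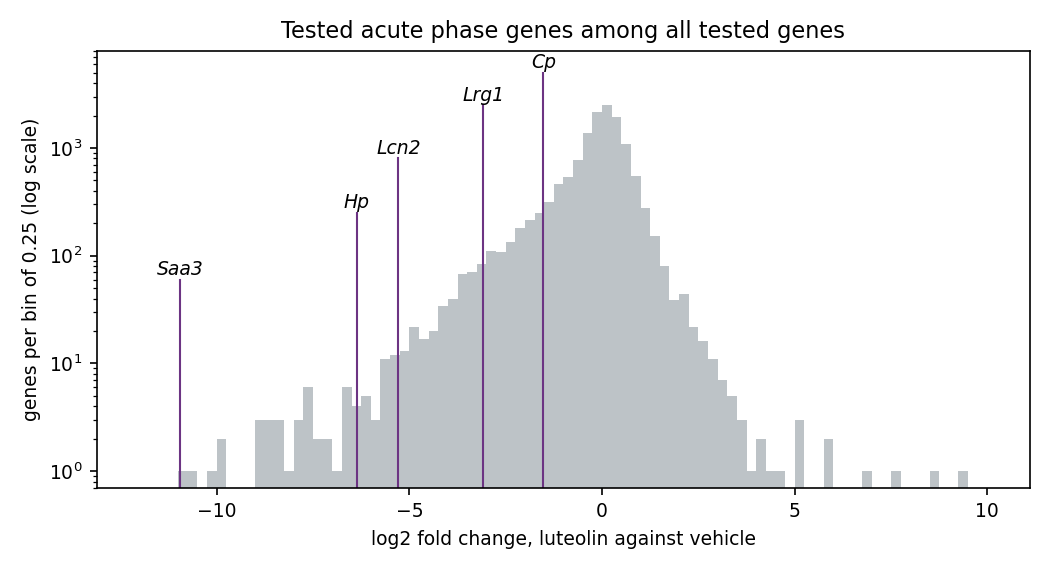
Number of tested genes (logarithmic vertical axis) in bins of the log2 fold change of luteolin against vehicle (horizontal axis), with lines at the values of the 5 tested genes (line height has no meaning). Saa3 at -10.95 has the lowest value of the 13838 genes, while 1405 genes lie below Cp at -1.52.

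The size of the decreases can be placed among all tested genes, whose median log2 fold change was -0.02. Fitted values lower than that of Hp were found for 37 genes, lower than that of Lcn2 for 69, lower than that of Lrg1 for 412 and lower than that of Cp for 1405. The place of Hp rests on 1 luteolin count, and its log2 fold change ran from -8.31 to -1.75 over the alternatives. The plot of all fitted values shows these places. In order of mean TPM with vehicle the genes ran Saa3, Lcn2, Cp, Lrg1, Saa1, Hp, Saa2, Ptx3, Orm1 and Orm2. The library ranges of Saa3 and Lcn2, of Lcn2 and Cp, and of Saa2 and Ptx3 did not overlap, and all other neighbours in that order did not differ beyond their spread. With luteolin the order was led by Cp (4.23 ± 0.676 TPM), followed by Lcn2 (3.11 ± 2.10 TPM) and Lrg1 (1.12 ± 0.689 TPM) (SD, n = 3), and no neighbours were separated. The ratio of Lcn2 to Cp in TPM was 5.09, 10.8 and 7.81 in the vehicle libraries and 0.687, 0.340 and 1.101 in the luteolin libraries.

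Vehicle 2 held the highest level of 9 of the 10 genes, all but Ptx3. In CPM it was 5.64 times the mean of vehicle 1 and 3 for Lcn2, 4.15 times for Saa1 and 3.97 times for Saa2 (12 counts in vehicle 2). It was 3.07 times that mean for Cp and 2.89 times for Saa3, but 1.31 times for Hp and 1.18 times for Lrg1. Several tissue markers were also highest in that library. Summed TPM of 12 keratocyte markers was 2809, 6062 and 1791 in vehicle 1, 2 and 3, that of 13 macrophage and dendritic cell markers 721, 1276 and 633, and that of 12 skeletal muscle markers 237, 377 and 51.9. Summed TPM of neutrophil markers was lowest there, at 232, 169 and 398 TPM over the 11 in the table. Most of that sum came from S100a8 (96.5, 77.4 and 204 TPM) and S100a9 (81.5, 56.4 and 117 TPM). Not each marker followed the sum. S100a8, S100a9, Cxcr2, Ltf and Mmp8 were lowest in vehicle 2. The receptor gene Csf3r (11.8, 10.2 and 8.65 TPM) and Camp (1.57, 0.62 and 0.30 TPM) were lowest in vehicle 3. The part of these marker differences in the spread of Lcn2, Saa1, Saa2, Cp and Saa3 was not tested.

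**Figure D3:**
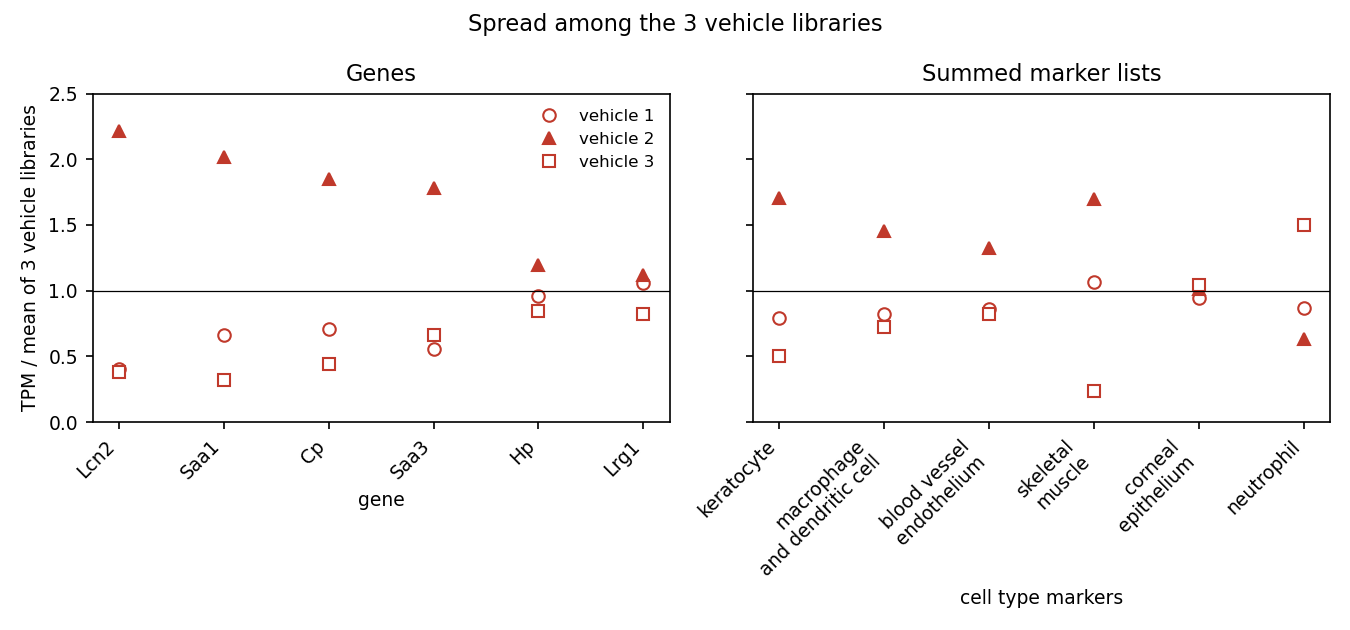
TPM of 6 genes (left) and summed TPM of 6 marker lists (right) in the 3 vehicle libraries, each divided by the mean of those 3 libraries (vertical axis, mean at 1). Vehicle 2 (filled triangles) reaches 2.22 for Lcn2 and 1.71 for keratocyte markers, but 1.12 for Lrg1 and 0.634 for neutrophil markers.

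Between the groups, markers of neutrophils, macrophages, blood vessels and conjunctiva moved with the set. Blood vessel markers fell in 10 of 11 tested. Of 12 keratocyte markers tested 4 fell, 1 rose and 7 did not pass. Skeletal muscle markers were called in 0 of 11 tested. Summed TPM of the neutrophil markers was 169 to 398 with vehicle and 7.97 to 23.4 with luteolin. Most of the vehicle sum came from S100a8 and S100a9. Most of the luteolin sum came from Ltf and S100a9, the latter at 3.61, 3.56 and 14.7 TPM in luteolin 1, 2 and 3. All 6 neutrophil markers with enough reads fell. Of these, only Ltf had at least 10 counts in each luteolin library. The rest passed the count filter through the vehicle group alone, so the count of 6 is a description. Csf3r, a cytokine receptor of neutrophils, stood at 8.65 to 11.8 TPM with vehicle and 0.050 to 0.420 TPM with luteolin, and was 40.8-fold lower (edgeR adjusted p = 9.65e-05). It had 18 luteolin counts. Granule genes differed widely in level. Ltf, lactoferrin, stood at 20.4, 15.5 and 43.4 TPM with vehicle and 2.95, 4.37 and 6.97 TPM with luteolin (5.57-fold lower, edgeR adjusted p = 0.00325). The collagenase gene Mmp8 had 39, 13 and 27 counts with vehicle and 0 in each luteolin library. Camp had 8 vehicle counts, Ngp 1 and the surface marker gene Ly6g 3, each with 0 luteolin counts. Summed TPM of the macrophage and dendritic cell markers was 633 to 1276 with vehicle and 138 to 187 with luteolin, and 10 of 13 fell and 1 rose. Beside the marker counts given here, 30.4% of all tested genes were called lower and 28.5% higher. Summed TPM of 5 conjunctiva and goblet cell markers was 4219 to 4449 with vehicle and 1855 to 2795 with luteolin. Of the 4 tested, the keratin genes Krt4, Krt13 and Krt19 fell and the goblet cell gene Agr2 did not pass (log2 fold change -0.16). The part of these cells in the decrease of the acute phase genes was not tested. Of 12 liver and plasma protein markers 8 were in the table, with a sum of 12.01 to 17.8 TPM with vehicle and 16.3 to 21.7 TPM with luteolin. Of the 3 with enough reads, Cps1, a urea cycle enzyme, rose (5.38-fold), Vtn, vitronectin, fell (7.47-fold, or 16.4-fold without luteolin 3), and Fetub, fetuin-B, did not pass (log2 fold change 0.31).

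The other genes raised in an acute phase response mostly fell as well. Of 24 genes listed, 11 had enough reads. Among these 8 fell, 0 rose and 3 did not pass, and the median log2 fold change was -1.64 against -0.02 for all tested genes, of which 30.4% were lower. Serpina3n, a secreted inhibitor of serine proteases, went from 250 ± 103 to 3.99 ± 1.29 CPM (SD, n = 3). It was 62.6-fold lower (log2 fold change -5.97, SE 0.377, edgeR adjusted p = 5.72e-05) and belongs to a family of similar genes, although its counts were whole in all 6 libraries. Cfb, complement factor B, was 14.9-fold lower, the lipopolysaccharide co-receptor gene Cd14 7.23-fold and the complement gene C4b 3.44-fold (edgeR adjusted p = 6.02e-05 to 0.000517). Mt2, a metallothionein, had a log2 fold change of -0.46 and Serping1, the C1 inhibitor gene, of -1.13 (without vehicle 2 -0.48), with adjusted p of 0.0605 and 0.0606. Both passed under some other settings, Serping1 without vehicle 3 (-1.45, edgeR adjusted p = 0.0179) and Mt2 without vehicle 2 (-0.66, edgeR adjusted p = 0.000584) among them. A2m, alpha-2-macroglobulin, stood at 272, 1122 and 160 CPM with vehicle and at 1516, 1065 and 566 CPM with luteolin. Its groups overlapped through vehicle 2 (log2 fold change 1.02, edgeR adjusted p = 0.246), and without that library it was higher (2.28, edgeR adjusted p = 0.00328).

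**Figure D4:**
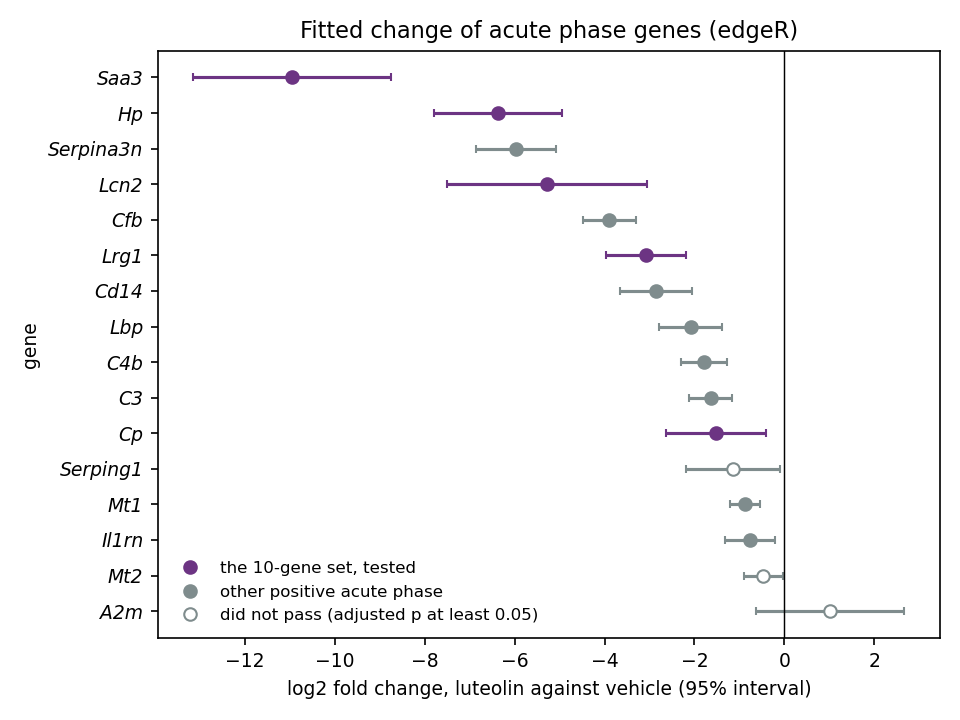
Log2 fold change of luteolin against vehicle (horizontal axis) with unadjusted 95% intervals for the 5 tested genes of the set (purple) and 11 other acute phase genes (grey), open points marking genes that did not pass. Values run from -10.95 for Saa3 to 1.02 for A2m, whose interval spans 0, while those of Serping1 and Mt2 lie below 0 before adjustment.

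Genes that are known to fall in an acute phase response were measured poorly. Of 8 listed, 1 had enough reads: Trf, transferrin, which other tissues also make, went from 29.4 ± 12.4 to 8.40 ± 3.35 CPM (SD, n = 3). Its log2 fold change was -1.81 (edgeR adjusted p = 0.00554).

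Cytokines that induce acute phase genes were measured with their receptors. Of 19 tested, 10 fell, 2 rose and 7 did not pass, and their median log2 fold change was -0.51. Over all tested genes 30.4% were lower and 28.5% higher. Il1b, interleukin-1 beta, was 95.7-fold lower (edgeR adjusted p = 0.000337). It had 18 luteolin counts, with an exact counting interval of the pooled ratio of 61.3 to 164. The tumour necrosis factor receptor genes Tnfrsf1b and Tnfrsf1a were 12.9-fold and 1.34-fold lower, and Il1rap, the shared subunit of interleukin-1 receptors, 1.87-fold. Some members were named after their values were seen. Il6, interleukin-6, had 3, 6 and 43 counts with vehicle and 0 in each luteolin library. The cytokine gene Lif fell 3.49-fold (edgeR adjusted p = 0.0210). Other cytokine genes did not pass, namely Tnf (log2 fold change 0.64, edgeR adjusted p = 0.373), Il1a (-0.51, edgeR adjusted p = 0.127) and Il11 (-0.09, edgeR adjusted p = 0.878). Osm, oncostatin M, had 85 vehicle counts and 1 luteolin count, a ratio of 77.4 with an exact counting interval of 13.5 to 3093. That read lay in luteolin 2, and with this library left out no luteolin count of Osm remained. Il1b and Osm passed the count filter through the vehicle group alone, so the count of 10 that fell is a description. The 2 genes that rose were the receptor subunits Osmr (log2 fold change 0.20) and Lifr (0.45). Their calls did not hold under 10 and 8 of 16 alternatives, among them library sizes only (Osmr 0.09, Lifr 0.34).

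Among 15 tested transcription factors and feedback genes, 6 were lower, 2 higher and 7 not called, at a median of -0.20, beside 30.4% lower and 28.5% higher over all tested genes. Socs3, the STAT3-induced inhibitor of cytokine receptors, stood at 28.1, 19.3 and 43.0 CPM with vehicle and 2.77, 2.40 and 1.87 CPM with luteolin. It was 12.8-fold lower (edgeR adjusted p = 0.000163). Cebpb, a C/EBP factor, was 2.31-fold lower and Relb, an NF-kappaB subunit, 1.80-fold. The 2 that rose were Jak1, a kinase of cytokine receptors (log2 fold change 0.41, edgeR adjusted p = 0.000779), and Stat3 itself (0.26, edgeR adjusted p = 0.00733), which was named after its value was seen. Jak1 had fractional counts in all 6 libraries, and its share of reads is uncertain. The call of Stat3 ended in limma fits of FPKM (0.14, limma adjusted p = 0.0515 to 0.0517).

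Receptors and partners of the 10 proteins are taken by the protein they serve. Of 24 tested, 17 were lower, 1 higher and 6 not called, at a median of -1.59 and beside the same 30.4% and 28.5%. Fpr1, Fpr2, Mmp9, Selp and Tnfaip6 had fewer than 10 counts in at least 1 luteolin library. They passed the count filter through the vehicle group, so the count of 17 is a description. Of the serum amyloid receptors, the formyl peptide receptor gene Fpr2 had 123 vehicle counts and 1 luteolin count, a ratio of 112 with an exact counting interval of 19.7 to 4460. Its single luteolin read lay in luteolin 2. Its relative Fpr1 was 18.6-fold lower (29.9-fold without luteolin 2). Fpr1 had 5 luteolin counts, with an exact counting interval of the pooled ratio of 8.25 to 62.4. The scavenger receptors Cd36 and Scarb1 were 15.8-fold (10.2-fold without vehicle 2) and 1.57-fold lower, and the Toll-like receptor gene Tlr2 1.78-fold. Tlr4 (log2 fold change -0.15) and P2rx7 (0.19, without vehicle 2 0.29 and passing) did not pass.

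For haptoglobin, the haemoglobin scavenger receptor gene Cd163 was 3.10-fold lower with groups that overlapped (2.39, 4.21 and 0.834 against 0.838, 0.650 and 0.901 CPM). Its call ended in both limma fits, without vehicle 1, without vehicle 2 (2.02-fold) or without any 1 luteolin library, and with the replicate number as a block (log2 fold change -1.44, edgeR adjusted p = 0.0656). Hmox1, haem oxygenase 1, was 7.23-fold lower (edgeR adjusted p = 4.80e-05), from 14.8 ± 0.564 to 2.04 ± 0.402 CPM (SD, n = 3). Lrp1, a receptor of haem carried by hemopexin, was 1.60-fold lower.

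For lipocalin-2, the receptor gene Slc22a17 did not pass (log2 fold change -0.10, 0.16 without vehicle 2 and 0.05 without luteolin 3), and its counts had decimals in all 6 libraries. Lrp2, the gene of megalin, had 2 vehicle counts and 1 luteolin count. Mmp9, the gelatinase that forms a complex with lipocalin-2, was 22.9-fold lower (edgeR adjusted p = 9.65e-05).

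For pentraxin 3, Selp, P-selectin, was 20.1-fold lower (34.6-fold without luteolin 3), C1qa, a chain of complement C1q, 7.52-fold and Tnfaip6, a hyaluronan-binding protein, 3.69-fold. Selp had 21 luteolin counts, with an exact counting interval of the pooled ratio of 13.2 to 33.2. The growth factor gene Fgf2 did not pass (log2 fold change -0.11, 0.11 without vehicle 2). Counts of Fgf2 had decimals in all 6 libraries.

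For ceruloplasmin, the iron exporter gene Slc40a1, whose iron the ferroxidases oxidise, was 7.08-fold lower (edgeR adjusted p = 0.000574). Ferroxidases related to ceruloplasmin were also listed. Heph, hephaestin, did not pass (log2 fold change -0.31), and Hephl1, hephaestin-like 1, rose from 7.67 ± 0.0689 to 14.0 ± 1.34 CPM (SD, n = 3), which is 1.83-fold (edgeR adjusted p = 0.000812). The Hephl1 libraries of the groups did not overlap.

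For Lrg1, TGF-beta receptor genes were listed. Eng, endoglin, was 5.23-fold lower and Acvrl1, which encodes ALK1, 2.80-fold. Tgfbr2 averaged 154 ± 26.9 CPM in the vehicle group against 52.6 ± 5.19 CPM (SD, n = 3), a 2.92-fold decrease (edgeR adjusted p = 0.000147). Tgfbr1 did not pass (log2 fold change 0.16). Summed TPM of 11 blood vessel markers was 111 to 179 with vehicle and 19.3 to 25.1 with luteolin, and their part in these values was not tested.

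The genes most like Saa3 and Lcn2 across the 6 libraries were sought among 11122 other genes with a mean of at least 5 CPM, by Pearson's r of log2 CPM. The points share the group difference and the library, so r is a description. For Saa3 these were Hspg2, perlecan (r = 0.999), the Wnt receptor gene Fzd1 (r = 0.999) and the leukocyte actin-bundling gene Lcp1 (r = 0.999). For Lcn2 they were Gnas, a G protein subunit (r = 0.997), Tnxb, tenascin-X (r = 0.996), and Ccdc85b (r = 0.995). Each was lower with luteolin and highest in vehicle 2, a pattern that the choice by r favours. Their log2 fold changes lay between -0.30 for Gnas and -3.53 for Lcp1.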

How the data were processed

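RNA of whole corneas was sequenced in 6 libraries, 3 per group by title, made with the TruSeq RNA kit, per the labels. Bowtie2 2.2.5, RSEM 1.2.12 and build mm9 are named, per the submitters' processing notes. Their roles, the annotation and the use of strand were not given in the sources used. The authors deposited estimated counts, of which 10.3% to 10.8% per library had decimals. The deposited TPM, per the file headers, served for levels between genes. The deposited FPKM, per the file headers, served for alternatives. The deposited normalized read counts, a signal scaled by 1 factor per library, and the group-average columns (8) were left aside.

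Counts were rounded and tested with edgeR 4.0.16 (R 4.3.3): filterByExpr (minimum count 10, total 15) kept 13838 genes and left out 3956, TMM factors scaled the libraries, and luteolin was set against vehicle by the quasi-likelihood test with Benjamini-Hochberg adjustment over the tested genes and a threshold of 0.05. The SE is the log2 fold change divided by the square root of F. With 0 luteolin counts a bound was taken against 3 counts over the group. For some genes with few counts an exact conditional 95% interval of the pooled ratio was given. The scripts were tested on simulated data.

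The 10 genes and all lists were chosen with earlier results of these data known. The genes named were the 10, every listed receptor or partner except 1 that is not reported here, and from the other acute phase, cytokine and factor lists the 4 tested genes with the smallest p and, where 5 or fewer did not pass, those. The cell marker lists are given mainly as sums, and not all genes the rule allows there are named. Named after their values were seen were Il6, Osm, Osmr, Lif, Lifr, Tnf, Il1a, Il11 and Stat3. So were Krt12, Krt5, Krt15, Trp63, Ltf, Mmp8, Camp, Ly6g, Ngp and genes with few reads. Alternatives were DESeq2 1.42.0, other normalization factors (RLE, upper quartile, library sizes only), no filter, 1 CPM in 3 libraries, a robust fit, a replicate block, limma 3.58.1 on log2(FPKM + 1) or log2(FPKM + 0.1), and leaving out each library. Transcripts were aligned with Biopython 1.88. Proteins were not compared.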

Additional observations from a re-analysis of the deposited data

How the results depend on the processing

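Saa3, Hp, Lcn2 and Lrg1 kept their direction and their call under all 16 alternatives, and Cp kept its direction in 16 and its call in 12. The number of the 10 genes called lower was 5, and 8 with no filter, which tests 10 genes in place of 5, and 4 in the robust fit, where Cp did not pass. Without a single library it ran from 4 to 6, and 0 were called higher under any alternative. Other acute phase genes called higher were 0, and 1 with the replicate block or, over the fits without a library, 0 to 1 (A2m without vehicle 2). Cytokine and receptor genes called higher were 2, but 0 with upper quartile factors, library sizes only or limma on log2(FPKM + 1) or log2(FPKM + 0.1), 1 with a filter of 1 CPM in 3 libraries, and 0 to 1 without a single library. Transcription factors called higher were 2, and 1 in both limma fits. Receptors and partners called higher were 1, and 1 to 2 without a single library. Apart from the filter, the cause was not tested. The log2 fold change of P2rx7 turned to -0.0377 and -0.0448 in the limma fits (pseudocounts 1 and 0.1). That of Slc22a17 turned to 0.16 without vehicle 2 and 0.05 without luteolin 3 (leave-one-out range -0.29 to 0.16), and that of Fgf2 to 0.11 without vehicle 2 (range -0.28 to 0.11). Lower genes made up 51.6% of all calls, and 61.9% with upper quartile factors, 63.6% with library sizes only and 65.1% and 65.3% in the limma fits, with the median of all genes moving from -0.02 to -0.13 with library sizes only. Same-numbered libraries did not deviate together (r = -0.15, 0.03 and 0.01 for numbers 1, 2 and 3), so the labels' numbers were not taken as pairs. The replicate block gave 7934 calls against 8157, and it changed calls only of Mt2, Serping1 and A2m, which passed, and Cd163, which did not, among the 58 genes followed. Depth limits Orm1, Orm2, Saa2 and Ptx3, each with fewer than 20 vehicle counts.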

Other observations

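Acute phase genes with too few reads for the test, named after their values were seen, did not all go one way. Serpina3m, a relative of Serpina3n, had 37 vehicle counts and 0 luteolin counts, at least 11.2-fold lower against 3 counts over the luteolin group. Itih3, an inter-alpha-trypsin inhibitor heavy chain gene, had 14 vehicle counts and 2 luteolin counts, a ratio of 6.38 with an exact counting interval of 1.46 to 57.8. Both luteolin reads lay in luteolin 3, so without that library no luteolin count of Itih3 remained. Hpx, the gene of the haem-binding protein hemopexin, had 20 vehicle counts and 19 luteolin counts, a ratio of 0.959 (interval 0.486 to 1.90). Crp, Fgb and Fgg, plasma proteins made by the liver, had 1 vehicle count each and 0 luteolin counts.

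The ratio of Saa3 to Lcn2 in TPM was 10.9, 6.35 and 13.7 in vehicle 1, 2 and 3, so that vehicle 2, with the most transcripts of both genes, had the lowest ratio. In luteolin 2, the only luteolin library with reads of Saa3, it was 0.921.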
